A study of Mus musculus with 3 samples.

Results

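Forkhead transcription factors were followed between fetal kidneys at 13.5 days post coitum (dpc) and metanephroi at 11.5 dpc of CD1 mice. The family was taken as every array feature whose single platform gene symbol was Fox, 1 subfamily letter from a to s and a number, with 1 gene of that form not reported here. This gave 39 of 21819 gene features and 33 genes, out of 14433 named genes, and all 33 had a value on all 3 arrays, so no member was lost to missing values. The features of 1 symbol were averaged.

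Both ages lay on each of 3 Compugen mouse oligonucleotide arrays read in 2 colours: channel 2 held normal fetal kidney of 13.5 dpc and channel 1 metanephroi, early permanent kidneys, of 11.5 dpc. The tissue was microdissected from CD1 embryos as pools of both sexes, and the RNA was amplified before labelling. The dye order was red/green on arrays 1 and 2 and green/red on array 3. The values are log2 ratios with the earlier age on top, so a positive value means higher at 11.5 dpc; this direction is likely from the order of ages in the labels but is not settled, and every direction below turns if it is wrong. Whether the 3 hybridisations used different extractions of RNA is not stated, so each p-value reflects array-to-array variation that could be technical in origin.

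Forkhead factors share a winged helix domain that binds DNA, and they are grouped by letter. FOXA factors can open closed chromatin in endoderm and its epithelia, FOXC factors act in mesoderm and in the early kidney field, FOXI1 sets up the acid-secreting intercalated cells of the collecting duct, FOXM1 drives genes of mitosis, and FOXO factors are held out of the nucleus when insulin or growth factor signalling is active. A ratio gives no level, so whether a forkhead gene was expressed at either age cannot be read from these values, nor can the presence of kidney marker genes be checked. Of 12 measured metanephric marker genes, 2 were positive and 6 negative on every array, with a median of -0.21. Over all 19015 rows tested, 16.8% were positive and 18.5% negative on every array. Counts of 1 sign in each list below stand against these shares. The nephron gene Pax8 had a mean of -0.79 and Osr1, a gene of the early kidney field, one of 0.42. In pooled tissue, fewer cells of a type and less RNA per cell cannot be told apart.

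The number of values was 20601, 21274 and 21563 gene features on arrays 1, 2 and 3, with standard deviations of the log2 ratio of 0.56, 0.79 and 0.97. Of 19015 rows, 0 passed an adjusted p of 0.05 in limma (1757 had an unadjusted p under 0.05), so no forkhead gene is called changed. Across all rows arrays 1 and 2 correlated at 0.27, arrays 1 and 3 at 0.12 and arrays 2 and 3 at -0.12 (Pearson, across genes, which are not independent replicates). Across the 33 forkhead genes these were 0.39, -0.0054 and 0.45. Rank correlations (Spearman) for the same pairs of arrays were 0.36, 0.13 and 0.0010 over all rows. For the forkhead genes they were 0.45, 0.021 and 0.44.

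The forkhead genes as a family showed no common direction. Their median log2 ratio was 0.028, against -0.0084 over all rows. Of the 33 genes, 17 had a positive and the others a negative mean (51.5% positive, against 49.1% of all rows). With 1 sign on every array, 6 genes were higher and 5 lower at 11.5 dpc, which is 18.2% and 15.2% of the family; over all rows the shares were 16.8% and 18.5%, and 35.3% in either direction. An unadjusted limma p under 0.05 was found for Foxa2, Foxn4 and Foxn2, which is 9.09% of the family against 9.24% of all rows. No forkhead gene was at least 2-fold from 0 on every array (0 of 33, against 0.684% of all rows: 0.247% higher and 0.436% lower at 11.5 dpc). A mean at least 0.5 log2 units from 0 was found for 9 genes, 27.3% of the family against 18.7% of all rows. The shares with 1 sign and with an unadjusted p under 0.05 lie near the background and are not a result about the family, so the genes below are described one by one. The limma adjusted p of the family ran from 0.405 (Foxa2) to 0.996 (Foxc1).

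**Figure D1:**
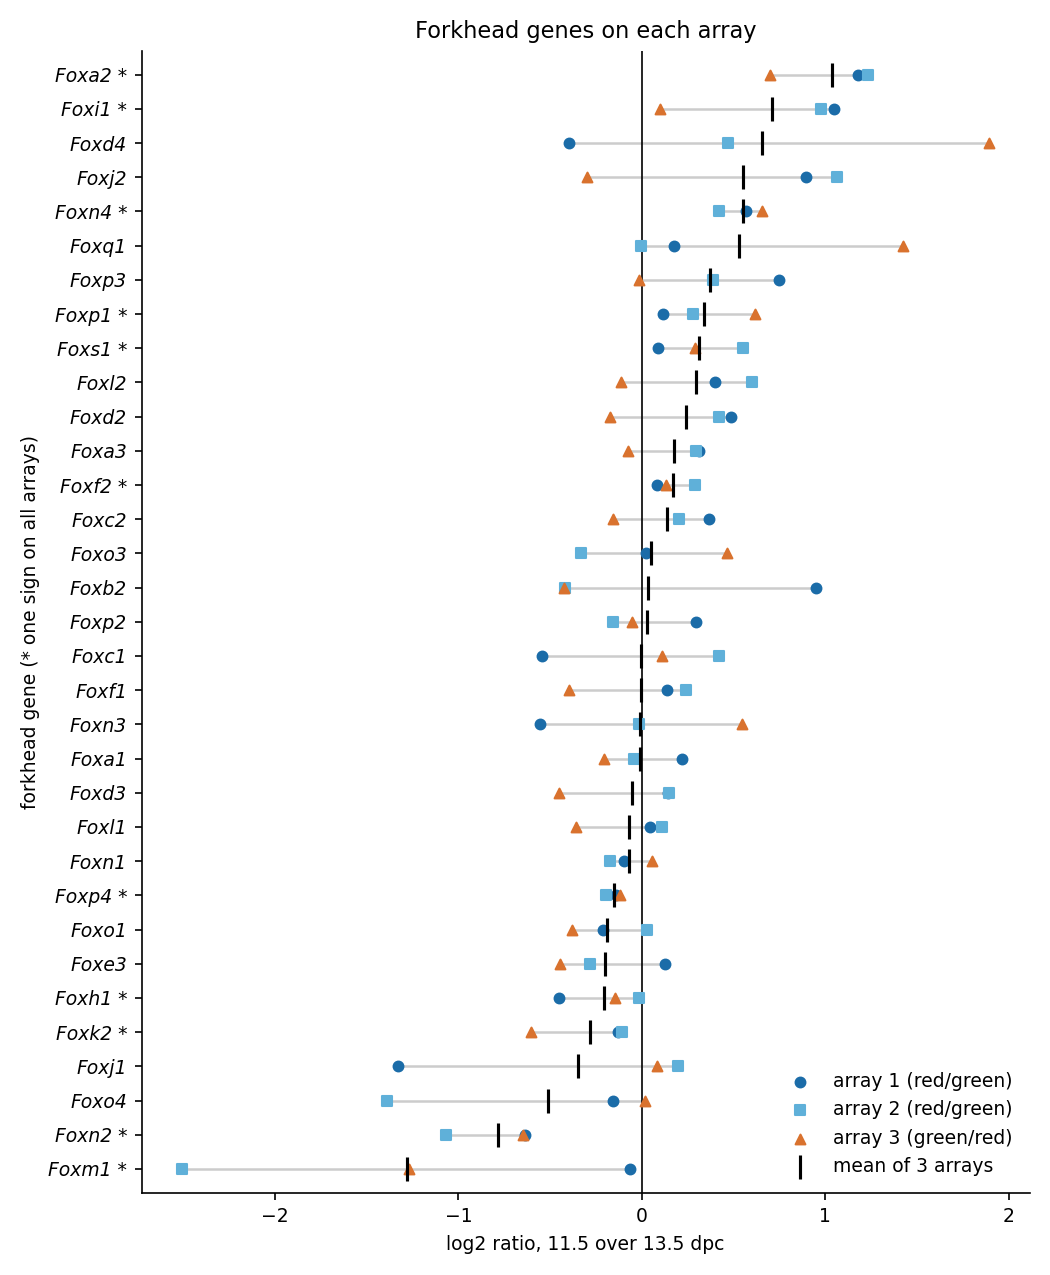
Log2 ratio (11.5 over 13.5 dpc, the likely direction) of each of the 33 forkhead genes on arrays 1, 2 and 3, with the mean of the arrays as a black tick and a grey line from the lowest to the highest array. Foxa2 has the highest mean (1.04) and Foxm1 the lowest (-1.28), and 11 genes marked with an asterisk have 1 sign on every array.

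The FOXA genes, pioneer factors of endoderm, stood apart from each other. Foxa2, which also marks notochord and floor plate, had log2 ratios of 1.18, 1.23 and 0.70 on arrays 1, 2 and 3. All arrays were thus positive, and the mean was 1.04 ± 0.29 (SD, n = 3 arrays), a 2.05-fold higher value at 11.5 dpc. It stood at the 97.6th percentile of all row means, with a limma adjusted p of 0.405 (unadjusted 0.00495). The gene rests on 2 features that did not behave alike: the first had 1.82, 1.99 and -0.077, and the second 0.54, 0.48 and 1.47. Each feature was high on the arrays where the other was lower, so the even profile of the gene comes from their average, and the first feature alone had no single sign. Foxa1 ranged from -0.21 to 0.22 with a mean of -0.0098, and both of its features had means near 0 (0.030 and -0.050). Foxa3 had 0.31 and 0.30 on arrays 1 and 2 and -0.074 on array 3. The differences among the 3 paralogs were not tested.

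The start regions of Foxa1 and Foxa2 are shown because these paralogs differ in their ratios, with Foxa1 near level and Foxa2 the highest of the family. Each line gives the 250 bases before the start site from RefSeq (GRCm38.p6), read 5′ to 3′ along the gene, and capitals mark the forkhead core TGTTTAC or its reverse complement GTAAACA. For Foxa2 the outermost of 3 annotated starts is shown.
Foxa1, chr12:57546112-57546361, minus strand: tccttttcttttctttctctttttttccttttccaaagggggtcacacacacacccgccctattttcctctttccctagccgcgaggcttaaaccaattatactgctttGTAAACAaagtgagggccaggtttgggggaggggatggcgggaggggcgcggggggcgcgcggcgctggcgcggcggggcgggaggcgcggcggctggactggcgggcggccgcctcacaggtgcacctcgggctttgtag
Foxa2, chr2:148046970-148047219, minus strand: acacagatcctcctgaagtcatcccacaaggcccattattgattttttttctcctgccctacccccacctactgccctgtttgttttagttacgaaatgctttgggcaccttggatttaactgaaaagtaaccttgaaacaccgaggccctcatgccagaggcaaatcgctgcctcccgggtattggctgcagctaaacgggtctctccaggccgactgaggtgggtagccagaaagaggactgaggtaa
The Foxa1 window holds the core on the opposite strand, beginning 141 bases before the start, and none of the 3 Foxa2 windows holds it. Across 27 windows of the 22 forkhead genes matched by symbol in that table, the core stood in 1 (3.70%), against 3.17% of all 32851 windows of the same length. A match is a description of these letters and not a site shown to be bound.

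Genes and markers of endoderm were set beside Foxa2. In a list of endoderm and epithelial cofactors of FOXA factors, 13 genes were measured. These 13 include the plasma protein genes Alb, Afp and Ttr, which are not cofactors. On every array 4 were positive and 3 negative, against 16.8% and 18.5% of all rows. The list median was 0.17, but -0.057 without array 3. The intestinal homeobox gene Cdx2 had 1.67, 1.90 and 3.08, above 0 on every array like Foxa2 (mean 2.22 ± 0.76, limma adjusted p = 0.359). Albumin, the plasma protein of liver, lay on the other side, with -0.95, -0.33 and -0.44 for Alb. The carrier protein gene Ttr had 0.45, 0.30 and 0.96. In the 8 gut and liver endoderm markers, 3 were positive and 3 negative on every array, and the range of means was -0.57 to 2.22. These markers overlap the cofactor list, with Cdx2, Alb, Ttr, Sox17 and Afp in both. The part of endoderm outside the kidney in the Foxa2 ratio was not tested.

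The FOXC and FOXD genes of mesoderm showed no shared direction. Foxc1, whose loss in mice gives duplicated kidneys and ureters, had -0.54, 0.42 and 0.11. The arrays lay on both sides of 0, and the mean of -0.0046 had a 95% limma interval from -0.68 to 0.67. Foxc2, which acts in podocytes and vessels, had 0.37, 0.20 and -0.16 (mean 0.14 ± 0.27). Foxd4 had -0.40, 0.47 and 1.89, so its mean of 0.66 rested on array 3, and without that array it was 0.037. Foxd2, which is needed for normal kidney size in some mice, had a mean of 0.24 (range -0.18 to 0.48). Foxd3, a neural crest factor, had a mean of -0.055 (-0.45 to 0.15). Of the neural crest and neuron markers beside it, 3 of 6 were negative and 1 was positive on every array. The shares of all rows were 18.5% and 16.8%. The median of these markers was -0.59.

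Of 16 measured genes of the early kidney field, podocytes and vessels, 11 were negative and 1 was positive on every array (against 18.5% and 16.8% of all rows), with a median of -0.29, against -0.0084 over all rows. With array 3 turned the list median was -0.088. This list overlaps the metanephric markers above, with Osr1, Pax2, Wt1, Gdnf, Sall1, Eya1 and Six2 in both. None of the 16 passed adjusted p, and 2 had an unadjusted limma p under 0.05 on the lower side (against 5.07% of all rows). The Notch ligand gene Dll4 had -0.98, -0.81 and -0.79, and the chemokine receptor gene Cxcr4 had -1.13, -0.68 and -0.74, so both lay below 0 on every array. Of 8 endothelial markers, 7 were negative and 0 positive on every array, with a median of -0.51 and means from -0.83 to 0.063; with array 3 turned that median was -0.23. The part of vessel content in these values was not tested.

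Foxi1, the switch of intercalated cells, had 1.05, 0.98 and 0.098. It was high on the red/green arrays and close to 0 on the green/red one, with a mean of 0.71 ± 0.53 and a limma adjusted p of 0.539. Of 10 measured intercalated cell genes, 1 was positive and 1 negative on every array, with a median of -0.077. The proton pump subunit gene Atp6v1b1 had -0.26, -1.29 and -0.18, which is below 0 throughout. The carbonic anhydrase gene Car15 had 0.45, 0.40 and -0.035, and so like Foxi1 was positive on the red/green arrays and close to 0 on the green/red one.

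Foxj1, the regulator of motile cilia, had -1.33, 0.20 and 0.083. Array 1 alone made its mean negative (-0.35), and without that array it was 0.14. Of 15 measured motile cilia genes, 1 was positive and 1 negative on every array, and the median was -0.0018. The dynein gene Dnah11 had 1.37, 0.23 and 3.51, and the tektin gene Tekt2 had -0.35, -0.83 and 0.0043. The 7 measured markers of multiciliated cells are all among these 15 genes, so they are not a separate observation. They held no gene with 1 sign on every array, in a range of means from -0.39 to 0.29. The other FOXJ member, Foxj2, a broadly expressed activator, had 0.89, 1.06 and -0.30. It was the forkhead gene with the largest mean (0.55) among those whose red/green arrays were positive and whose green/red array was negative.

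Foxm1 had the lowest mean of the family. Its log2 ratios were -0.066, -2.51 and -1.27, all below 0 and spread over more than 2 log2 units. The mean of -1.28 ± 1.22 is 2.43-fold lower at 11.5 dpc, at the 1.06th percentile of all row means, with a limma adjusted p of 0.553 (unadjusted 0.0671). Without array 2 the mean was -0.67. Of 17 measured mitotic genes that FOXM1 is known to activate, 4 were negative and 1 was positive on every array. The shares of all rows were 18.5% and 16.8%. Among the 17 genes, 0 had an unadjusted limma p under 0.05, against 9.24% of all rows. Their median was -0.062, and 0.033 without array 3. Their means lay between -0.40 and 0.18, all closer to 0 than the Foxm1 mean. The spread over arrays was wide for some of them, as for Plk1 with -0.47, -1.41 and 2.06 (SD 1.79). The cyclin gene Ccna2 had -0.43, -0.43 and -0.33, and the spindle checkpoint gene Bub1b had -0.27, -0.23 and -0.65. Both were below 0 on every array.

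Of the 4 FOXN genes, Foxn2 and Foxn4 kept 1 sign on every array and the other two lay near 0. Foxn2, a broadly expressed member, had -0.64, -1.07 and -0.65, with no array above 0. Its mean was -0.79 ± 0.24 (1.72-fold lower at 11.5 dpc), with a 95% limma interval from -1.27 to -0.30, and a limma adjusted p of 0.471 (unadjusted 0.0105). Foxn4, a factor of retinal and spinal cord progenitors, had 0.57, 0.42 and 0.65. All arrays were positive, with a mean of 0.55 ± 0.12 (1.46-fold higher at 11.5 dpc) and a limma adjusted p of 0.516 (unadjusted 0.0215). Foxn3 spanned -0.55 to 0.54 around a mean of -0.0089. Foxn1, the thymic factor missing in nude mice, spanned -0.17 to 0.057 around -0.072. Foxn2 and Foxn4 thus lay on opposite sides of 0 within 1 subfamily.

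FOXO genes, the targets of insulin signalling, lay near or below 0. Foxo4 had -0.16, -1.39 and 0.016, so its mean of -0.51 rested on array 2, and without that array it was -0.070. Foxo1 had a mean of -0.19 (range -0.38 to 0.026) and Foxo3 one of 0.051 (-0.33 to 0.47). Foxo3 was the average of 3 features with means of -0.039, -0.16 and 0.35, the last of them positive on every array.

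Of 23 measured genes that FOXO factors are known to activate or repress, 3 were positive and 4 negative on every array. The shares of all rows were 16.8% and 18.5%. At an unadjusted limma p under 0.05, 3 lay higher and 1 lower at 11.5 dpc, against 4.17% and 5.07% of all rows. The higher ones were Bnip3 (0.61, 0.45 and 0.96), a gene of mitophagy, the death gene Bcl2l11 (0.43, 0.53 and 0.53) and the cyclin gene Ccng2 (0.53, 0.35 and 0.69). FOXO factors are known to activate all of these. The lower one was Ccnd1, a cyclin gene that FOXO factors are known to repress, with -0.53, -0.60 and -0.68. Sesn1 and Klf2, which FOXO factors are also known to activate, were negative on every array with means of -0.36 and -0.20. Txnip, also in the list, was negative on every array with a mean of -0.26, and Bcl6 had -0.53, 0.069 and -1.86. The list median was 0.031, and no member passed an adjusted limma p of 0.05. For 21 measured genes of kinases, phosphoserine-binding proteins and other regulators upstream of FOXO, 6 were positive and 2 negative on every array. The shares of all rows were 16.8% and 18.5%. The median of these genes was 0.13, and FOXO activity was not tested. Ywhae, whose protein can hold phosphorylated FOXO in the cytoplasm, had -1.10, -0.70 and -0.60, and its relative Ywhab had 0.31, 0.31 and 0.41.

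**Figure D2:**
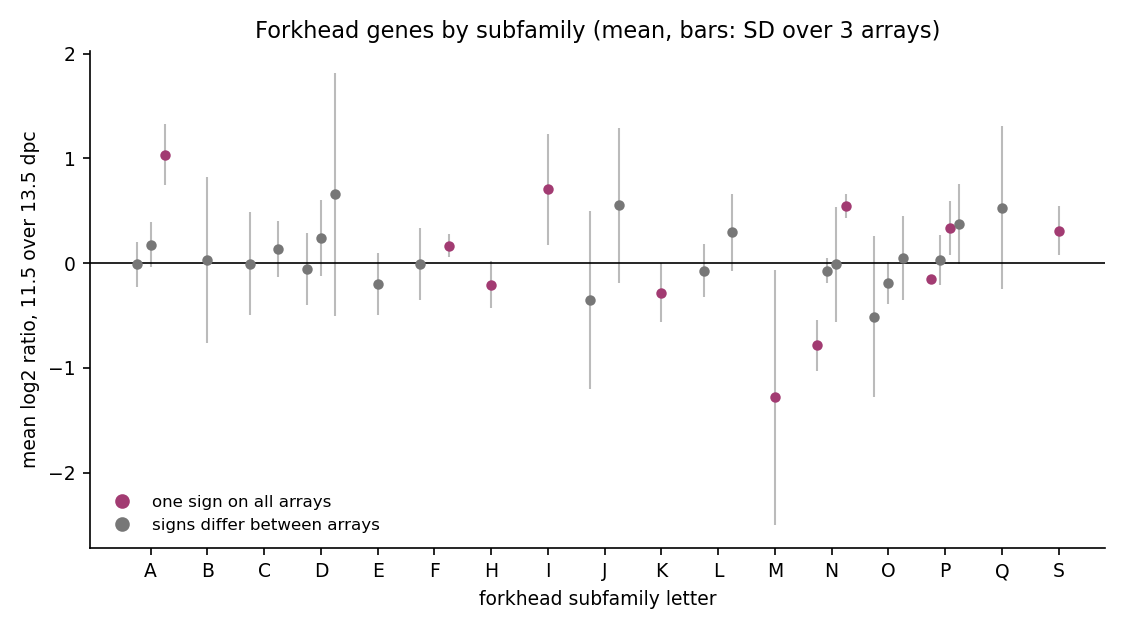
Mean log2 ratio (11.5 over 13.5 dpc) of each forkhead gene by subfamily letter, with bars for the SD over 3 arrays and colour for genes with 1 sign on every array. Foxa2 (A) and Foxi1 (I) lie highest and Foxm1 (M) and Foxn2 (N) lowest, and the bars of most other genes cross 0.

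FOXP genes encode repressors of transcription that act in development and immunity. Foxp1, which acts in heart, lung and lymphocytes, had 0.11, 0.28 and 0.61. Its arrays were all positive, with a mean of 0.34 ± 0.26. Foxp4, a lung factor, had the smallest spread of the family, with -0.14, -0.19 and -0.12 and a mean of -0.15 ± 0.039. Its 2 features ran -0.28, -0.33 and -0.015, and 0.0058, -0.060 and -0.22, with SDs of 0.17 and 0.12. The second had no single sign, so the small spread and the 1 sign of the gene come from averaging the features. Foxp3, the factor of regulatory T cells, had a mean of 0.37 (range -0.017 to 0.75). Lymphocyte markers had a median of 0.21 over 7 genes, 2 of them positive and none negative on every array, but without array 2 the median was -0.13 and without array 1 it was 0.090. The recombinase gene Rag1 had 0.67, 0.61 and 0.30. The part of lymphoid cells in the Foxp3 ratio was not tested. Foxp2, a factor of neurons and lung, had a mean of 0.028 (-0.16 to 0.30).

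Foxf1, Foxf2 and Foxl1, forkhead genes of mesenchyme that respond to hedgehog signals, had means close to 0. Foxf2 had 0.083, 0.29 and 0.13 and so was positive on every array (mean 0.17 ± 0.11), while Foxf1 had a mean of -0.0058 (range -0.40 to 0.24). Foxl1, a factor of gut mesenchyme, had a mean of -0.070 (-0.36 to 0.11). Of 11 measured hedgehog pathway genes, 4 were negative and 0 positive on every array, against 18.5% and 16.8% of all rows. Their median was -0.25, from medians of 0.12, -0.20 and -0.38 on arrays 1, 2 and 3. With array 3 turned the median was -0.024. The means of the members ran from -0.41 to 0.16. The receptor gene Smo had -0.33, -0.22 and -0.49, and the effector gene Gli1 had -0.66, -0.12 and -0.38, all below 0.

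The remaining genes with 1 sign on every array had small ratios. Foxs1, a marker of pericytes and sensory neurons, had 0.089, 0.55 and 0.29. Foxh1, the partner of SMAD proteins in Nodal signalling, had -0.45, -0.017 and -0.15. Foxk2 had -0.13, -0.11 and -0.61. Foxh1 came within 0.02 log2 units of 0 on array 2, so its sign there is the least firm of these. Among 14 measured Groucho corepressors and other partners of forkhead proteins, 5 were negative and 0 positive on every array. The shares of all rows were 18.5% and 16.8%. The list median was -0.17, and -0.019 without array 1. The nucleosome remodelling subunit gene Mta1 had -0.51, -0.61 and -0.98, and the corepressor gene Tle5 had -0.60, -0.33 and -0.25.

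Foxq1, a factor of hair and epithelia, had 0.18, -0.0073 and 1.42. Its mean of 0.53 rested on array 3, and within it on 1 of 2 features, which had 0.83, -0.32 and 2.79 against -0.48, 0.31 and 0.062 for the other. The last 3 members were Foxl2, the ovarian factor, with a mean of 0.29 (range -0.12 to 0.60), Foxb2 with 0.034 (-0.43 to 0.95) and the lens factor Foxe3 with -0.20 (-0.44 to 0.13). Of the gonad, adrenal and mesothelium markers set beside Foxl2, 4 of 7 were negative and 0 positive on every array. The shares of all rows were 18.5% and 16.8%. The median of these markers was -0.43, and their part in the Foxl2 ratio was not tested.

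The forkhead values of array 3 differed in sign from those of the other arrays for many genes. Array 3 is the only one of the green/red order, so dye order and that array cannot be told apart. On arrays 1, 2 and 3, 63.6%, 57.6% and 42.4% of the 33 genes were positive, against 51.0%, 56.0% and 41.7% of all rows, so the low share on array 3 is shared by all rows. Foxa3, Foxc2, Foxd2, Foxd3, Foxf1, Foxj2, Foxl1, Foxl2 and Foxp3 were positive on both red/green arrays and negative on the green/red array, which is 27.3% of the family against 18.9% of all rows. Foxn1, Foxn3 and Foxo4 had the reverse pattern (9.09%, against 10.3% of all rows). If array 3 had not been turned to the direction of the others before deposit, these 12 genes would be the ones with 1 sign on every array, 9 higher and 3 lower at 11.5 dpc. Foxa2, Foxn4 and Foxn2 would then no longer have an unadjusted limma p under 0.05, and the Foxa2 mean would be 0.57. Erythroid markers were positive on every array in 7 of 7 cases as deposited, with medians of 1.35, 2.23 and 1.10 on arrays 1, 2 and 3, and Hbb-bh1, an embryonic globin gene, had 3.13, 5.26 and 3.81.

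**Figure D3:**
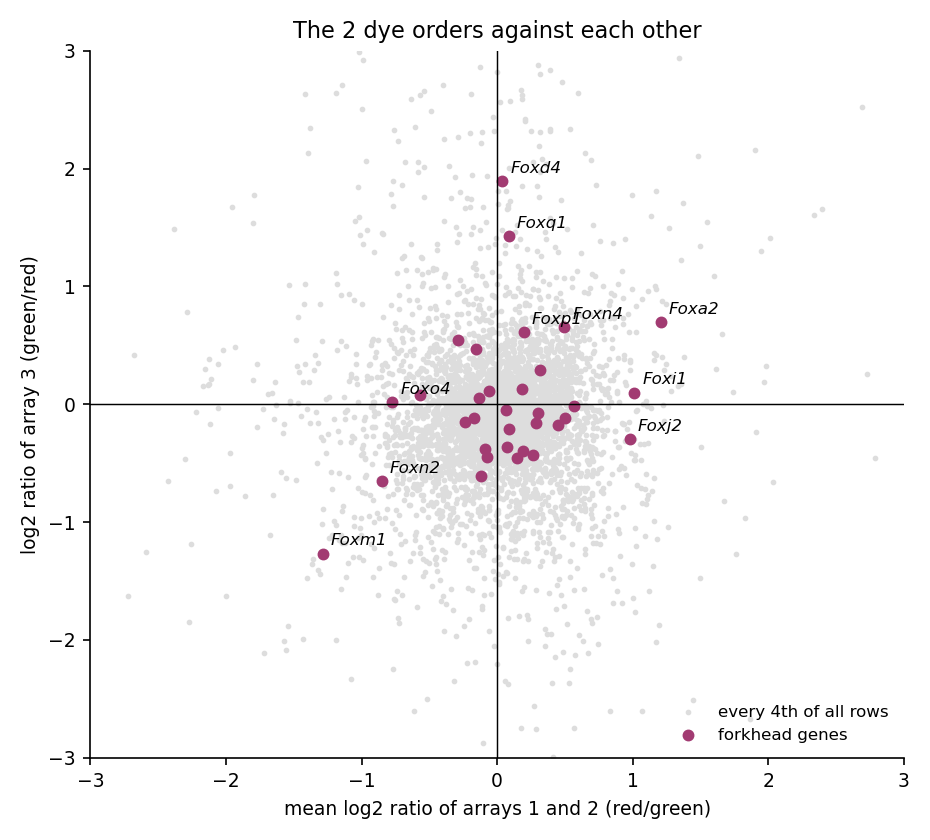
Mean log2 ratio of the red/green arrays 1 and 2 (horizontal) against that of the green/red array 3 (vertical), for the 33 forkhead genes in colour and every 4th of all rows in grey, within 3 log2 units. Foxa2 and Foxn4 lie in the upper right and Foxm1 and Foxn2 in the lower left. Foxd4 and Foxq1 are high on array 3 and near 0 in the mean of arrays 1 and 2.

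Neighbouring forkhead genes had means on both sides of 0. Forkhead genes within 500 kb of each other in the GRCm38.p6 table form 3 groups. On chromosome 13, Foxq1, Foxf2 and Foxc1 had means of 0.53, 0.17 and -0.0046. On chromosome 8, Foxc2, Foxf1 and Foxl1 had 0.14, -0.0058 and -0.070, and each was positive on arrays 1 and 2 and negative on array 3. On chromosome 4, Foxd2 and Foxe3 had 0.24 and -0.20.

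**Figure D4:**
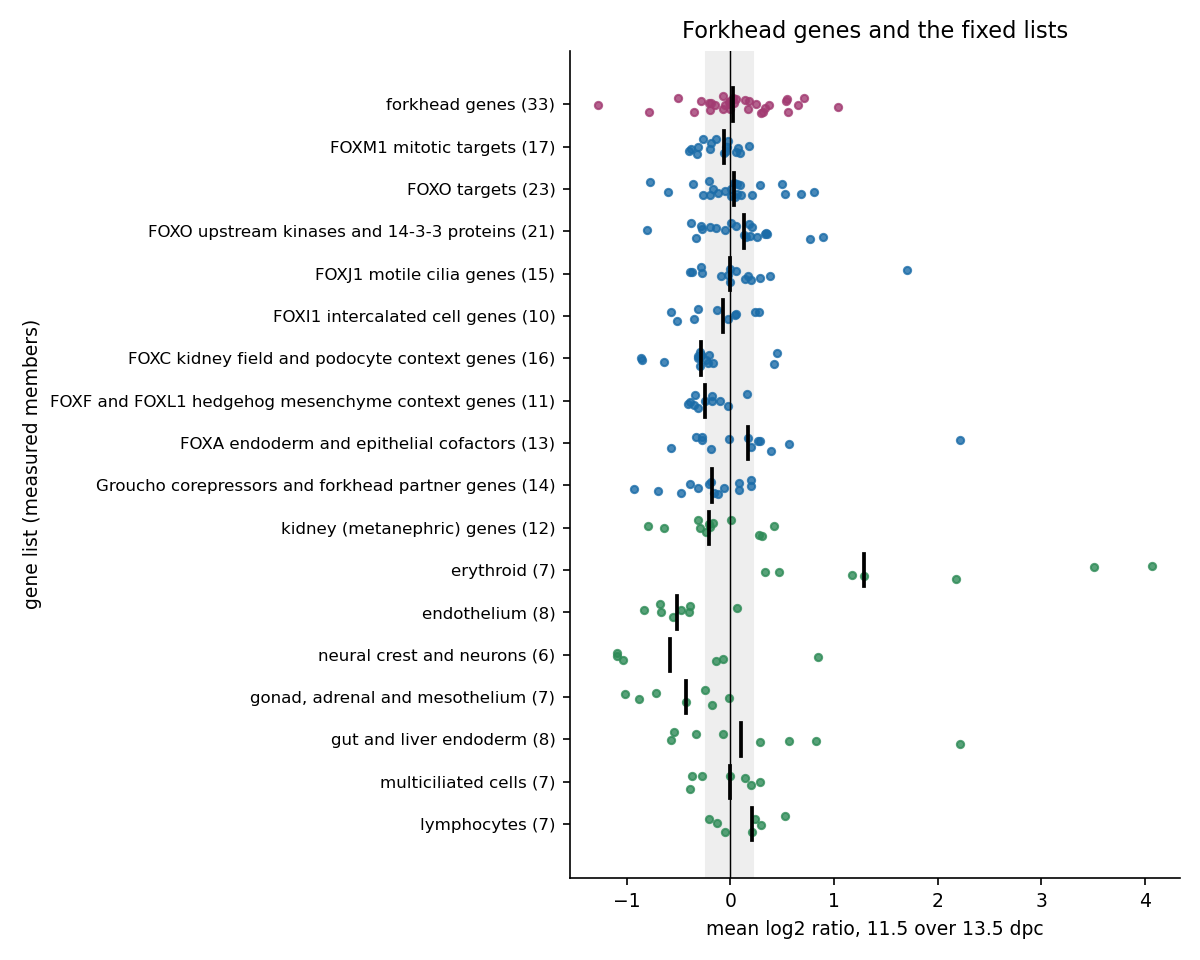
Mean log2 ratio (11.5 over 13.5 dpc) of each measured member of the forkhead family, of the forkhead-related lists and of the cell type marker lists, with the median as a black bar and the middle 50% of all row means as a grey band. The forkhead median (0.028) lies within the band, the erythroid median lies above it (1.28) and the endothelial median below it (-0.51).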

How the data were processed

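RNA of both ages was measured on 3 arrays read in 2 colours, which form 1 group of 3. The deposited values are log2 ratios that the authors made after reading images with ImaGene 5.5, per the labels. The labels name print-tip loess with a normalisation between arrays, and also a Lowess curve through 20% of the data with a floor of 10 for the control channel; the labels do not say which of these applied. The base follows from the values: 2 raised to them gave whole multiples of 0.001 (within 0.02 of a step) in 100% of cases, against 4.42% for e and 4.26% for 10. Spot intensities were not used here, so dim spots could not be filtered, and scale, centring and direction stay as deposited.

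Control and blank features (883 of 22702) were left out. Platform symbols were used (16656 features with 1 symbol, 137 with several, 5026 with none); 15970 matched the GRCm38.p6 table and 0 were renamed. Features with a value on all arrays (20386) gave 19015 rows after averaging by symbol. The mean of each row was compared with 0 by lmFit and eBayes of limma 3.58.1 under R 4.3.3 (two-sided, Benjamini-Hochberg over all rows), which leaves 2 residual degrees of freedom per row, and the procedure was tested on simulated data. The number of arrays limits the precision.

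The members and lists were chosen with earlier results of these data known. Every member was named. Array values were given for those with 1 sign on all arrays, an unadjusted p under 0.05, a mean at least 0.5 from 0, and Foxc1, Foxc2, Foxm1, Foxi1 and Foxj1. From each list of genes related to forkhead function the 2 members with the smallest p were named, and further ones after their values were seen, as were markers. No set test was run. Protein sequences were not used here.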

Additional observations from a re-analysis of the deposited data

How the results depend on the processing

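The limma count at an adjusted p of 0.05 was 0 under every alternative run, and the forkhead genes at an unadjusted p under 0.05 were 3, with 1 when array 3 was turned (Foxj2), 6 with a dye term and 1 to 4 without 1 array. Over all rows the count at that p was 1757 (9.24%), 1252 with array 3 turned (6.58%), 2669 with a dye term (14%) and 736 to 2346 without 1 array. Genes with 1 sign on all arrays and lower at 11.5 dpc were 5, and 3 with array 3 turned or after a running median along the library, and 6 to 9 without 1 array; the higher ones were 6, with 8 to 15 when a sign had to hold on only 2 arrays. Genes at least 2-fold on every array were 0, 0 to 1 without 1 array (Foxm1 without array 1 and Foxa2 without array 3) and 2 at 1.5-fold (Foxa2 and Foxn2), where 2.52% of all rows passed. For the running median and the runs without 1 array, the shares of all rows with 1 sign or at least 2-fold were not counted. The forkhead counts of those runs are therefore not a result about the family.

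Foxa2 and Foxn2 had an unadjusted limma p under 0.05 in every refit other than array 3 turned, for Foxn2 without array 2, and for 1 of the 2 features of Foxa2 taken singly, and their means kept their sign in each alternative run. With array 3 turned, the mean changed sign for Foxp1 (-0.074), Foxo3 (-0.26), Foxq1 (-0.42), Foxd4 (-0.61), Foxo1 (0.065), Foxe3 (0.096), Foxk2 (0.12), Foxa1 (0.13), Foxl1 (0.17), Foxd3 (0.25) and Foxf1 (0.26). A dye term turned Foxb2 (-0.081), Foxc1 (0.024) and Foxn3 (0.13). Foxc1 also became 0.00072 with median centring and 0.016 after the running median, and Foxf1 became 0.0010 with scale normalisation and 0.010 after the running median. Single features gave 0.030 for 1 of Foxa1, -0.16 and -0.039 for 2 of Foxo3 and -0.035 for 1 of Foxq1. Leaving out 1 array turned the sign of some means, with ranges of Foxa1 -0.12 to 0.089, Foxb2 -0.42 to 0.26, Foxc1 -0.22 to 0.27, Foxd3 -0.16 to 0.14, Foxf1 -0.13 to 0.19, Foxj1 -0.62 to 0.14, Foxl1 -0.16 to 0.076, Foxn3 -0.29 to 0.26, Foxo3 -0.16 to 0.24 and Foxp2 -0.10 to 0.12. The cause of these sign changes was not tested.

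With array 3 turned, the list medians became 0.050 for FOXM1 targets, -0.019 for genes upstream of FOXO, -0.036 for FOXA cofactors, -0.053 for gut and liver endoderm, 0.44 for multiciliated cells, 0.66 for erythroid, -0.24 for neural and -0.061 for gonad markers; the lymphocyte median was -0.13 with a dye term.

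No paired analysis was possible because there is 1 group, so no replicate numbers are shared between groups; each ratio is already a difference between the ages within 1 array. Without intensities, signal over background is not known.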
